A study of Drosophila melanogaster with 8 samples.

Results

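Heads of fruit flies (Drosophila melanogaster) that carried one of 2 RNA interference constructs against the gene row were compared directly with each other. The row_RNAi2 flies had the genotype Actin-gal4/+; UAS-rowRNAi2/+ and gave 3 libraries, and the row_RNAi1 flies had the genotype Actin-gal4/+; UAS-rowRNAi1/+ and gave 2 libraries. These are 5 of the 8 libraries of the study. The other 3 came from Actin-gal4/+ flies with no UAS insertion in the label, took no part in the test, and are given beside the values as controls. A gene was tested when at least 2 of the 5 libraries held 10 or more counts of it, which kept 9502 of 13781 gene symbols. At that limit, 75 genes had exactly 10 counts in the library with their next-highest count and were kept, 84 genes had exactly 9 and were not, and 302 symbols had no count in any of the 5 libraries.

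In this system the yeast activator Gal4, made under the Actin promoter in most tissues, switches on a UAS transgene that produces a hairpin RNA, and the cell cuts the hairpin into small RNAs that degrade the matching transcript. The target, row, is named as the relative of woc, and its zinc-finger protein belongs to a chromatin complex that includes HP1c and woc. Different constructs against the same gene are commonly used side by side, because each has its own sequence, insertion site and genetic background. Each row line was 1 construct, so hairpin, insertion and background cannot be told apart within a line. A fly head holds the eyes, the brain with its glia, the antennae, cuticle, muscle, blood cells and the fat body, the insect tissue that stores nutrients and secretes immune peptides into the hemolymph.

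The flies of all groups were kept at 25 °C with 12 hours of light and 12 hours of dark, were given 3 further days after CO2 exposure and were frozen on dry ice. RNA was measured by 3′ RNA-seq with the RNAtag-Seq protocol, which counts reads near the ends of transcripts. Sex, age and the independence of the replicates are not given in the sources used here, so p-values rest on the spread among these libraries, and that spread may be technical. The row_RNAi2 libraries held 6230666, 11212213 and 10678460 counts, the row_RNAi1 libraries 17952015 and 18046699, and the controls between 7015874 and 9437287. Levels are CPM (counts scaled to one common library size) on TMM-adjusted totals. A log2 fold change is row_RNAi2 minus row_RNAi1 in the edgeR fit, given with an approximate standard error (SE). The SE is the absolute log2 fold change divided by the square root of the F statistic of its test. A gene was called at an adjusted p under 0.05 (quasi-likelihood F test of edgeR, Benjamini-Hochberg adjustment over all 9502 genes, here the edgeR adjusted p). In whole-head RNA, fewer cells of a type and less RNA per cell cannot be told apart.

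The libraries of a line resembled each other more than those of the other line. Across genes, log2 levels correlated at 0.987 to 0.992 within row_RNAi2, at 0.994 within row_RNAi1 and at 0.980 to 0.984 between the lines. In a principal component analysis the leading axis carried 52.2% of the variance and put the 3 row_RNAi2 libraries at scores of -18.4 to -10.3, against 20.04 and 20.34 for the row_RNAi1 libraries. The median SD of a gene's log2 level was 0.142 within row_RNAi2 and 0.0778 within row_RNAi1. All pairs of libraries of a line differed by more than counting noise, with a chi-square 7.80 to 10.8 times its degrees of freedom.

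The targeted transcript did not pass the test between the lines. The row transcript was at 8.04, 5.999 and 8.38 CPM in row_RNAi2 heads and at 5.89 and 4.20 CPM in row_RNAi1 heads, with 14.3, 14.9 and 12.1 CPM in the controls. Every row_RNAi2 library lay above both row_RNAi1 libraries, as for 19.8% of all tested genes, with 5.999 against 5.89 CPM at the closest. All 5 libraries lay below the controls. The log2 fold change was 0.56 (SE 0.21, edgeR adjusted p = 0.117). An exact permutation test of its CPM values, two-sided, gave p = 0.2, where 3 libraries against 2 allow no p below 0.1. Whether reads of the hairpin transgenes were counted as row was not tested.

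Between the lines, 1048 of 9502 tested genes were called, which is 11.0%, with 504 higher in row_RNAi2 (5.30%) and 544 lower (5.73%). The median log2 fold change over all tested genes was 0.01. At an unadjusted p under 0.05 there were 2176 genes. Most called differences were modest: 206 exceeded 1 on the log2 scale, 82 of them higher and 124 lower in row_RNAi2. The row_RNAi2 libraries lay entirely to one side of the row_RNAi1 libraries for 1038 of the called genes, against 39.1% of all tested genes (19.8% higher and 19.2% lower in row_RNAi2). Calls depended on abundance. The called share was 2.85% of genes under 1 CPM and 3.97% between 1 and 5 CPM. It was 8.63% between 5 and 50 CPM and 26.6% at 50 CPM or more. Counts of called genes in the lists below are to be read beside these shares and the shares over all tested genes. The number of called genes was 560 without row_RNAi1 replicate 1 and 573 without row_RNAi1 replicate 2. Either fit leaves a single row_RNAi1 library, which is then assumed to vary like the row_RNAi2 libraries. Some genes overlap another tested gene, among them Nmdmc, aay, Ilp5, Ilp6, Def, TotX, Tret1-1, Cyp4ac2, Cpr64Ac, Cpr11B, Obp44a, Pdh, cpx, pr, w and y. Whether reads were counted by strand is not given in the sources used here, so reads of a gene and its overlapping partner cannot be told apart.

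**Figure D1:**
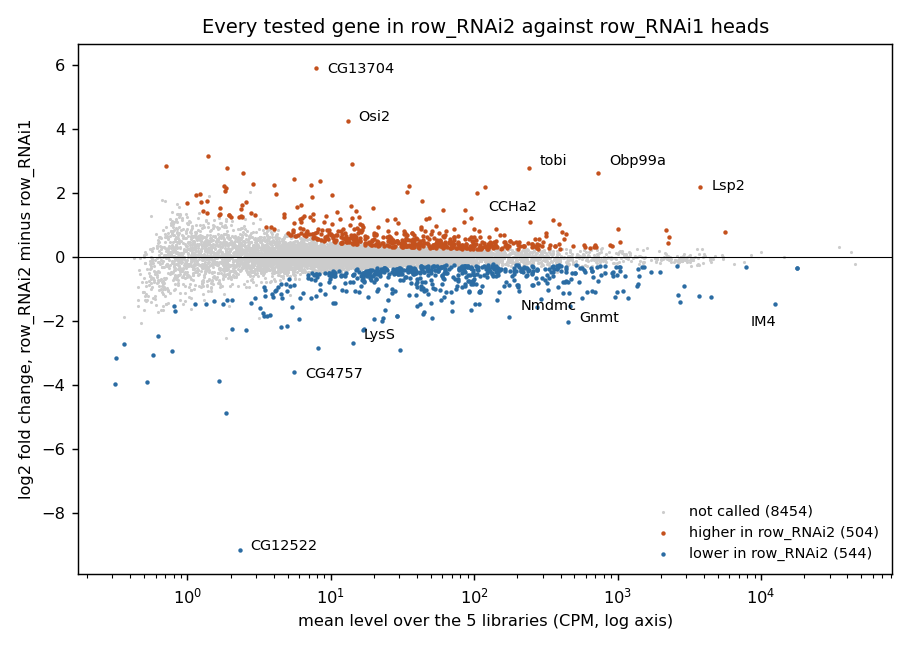
Each point is a tested gene, with its mean level over the 5 libraries in CPM on a log axis and its log2 fold change, row_RNAi2 minus row_RNAi1. The 504 genes called higher and 544 called lower in row_RNAi2 are coloured, and CG13704 and Osi2 lie at the top and CG12522 at the bottom.

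The controls place these differences without entering the test. Among the 1048 called genes, the median distance from the control mean was 0.23 on the log2 scale in row_RNAi2 and 0.59 in row_RNAi1, beside 0.13 and 0.18 over all tested genes. For the genes called higher in row_RNAi2 the median log2 difference from the controls was -0.01 in row_RNAi2 and -0.50 in row_RNAi1. For those called lower in row_RNAi2 it was 0.11 in row_RNAi2 and 0.70 in row_RNAi1. All 3 controls lay strictly between the lines for 93 called genes, 45 of them higher and 48 lower in row_RNAi2. The share of all tested genes with this order was not counted, so the 93 is not read as a trait of called genes. These distances share the same 3 control libraries and are a description.

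The fat body storage protein genes Lsp2 and Lsp1beta, the sugar-cleaving enzyme gene tobi, which is a target of brain insulin and of adipokinetic hormone, and the nutrient-sensitive peptide gene CCHa2 were called higher in row_RNAi2. They come from different gene lists, and other members of the lists that hold Lsp2 and tobi were called lower. The hexamerin gene Lsp2 stood at 4219.6, 6286 and 5969 CPM in row_RNAi2 heads, at 1555 and 845 CPM in row_RNAi1 heads and at 892, 921 and 1685 CPM in controls. Its log2 fold change was 2.19 (SE 0.21, edgeR adjusted p = 4.18e-06), and only row_RNAi2 stood apart from the controls, with 1 control above both row_RNAi1 libraries. The related gene Lsp1beta, at 176, 199 and 142 CPM in row_RNAi2 heads, was at 39.1 and 36.9 CPM in row_RNAi1 heads and 188, 207 and 358 CPM in controls. Here row_RNAi1 was the low group, and the log2 fold change was 2.18 (SE 0.12, edgeR adjusted p = 1.9e-08). For tobi the row_RNAi2 libraries gave 337, 382 and 371 CPM, the row_RNAi1 libraries 67.7 and 38.97 CPM and the controls 123, 107 and 154 CPM, in between (log2 fold change 2.77, SE 0.17, edgeR adjusted p = 2.31e-08).

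The peptide CCHa2 is made in the fat body and gut when nutrients are plentiful and signals to the insulin-producing cells of the brain. It was at 153, 146 and 150.1 CPM in row_RNAi2 heads, at 43.5 and 30.7 CPM in row_RNAi1 heads and at 127, 122 and 137 CPM in controls, a log2 fold change of 2.01 (SE 0.12, edgeR adjusted p = 2.18e-08). The groups did not overlap, and row_RNAi2 lay closest to the controls. Insulin-like peptide genes of those brain cells were also higher in row_RNAi2. Ilp2 gave 155, 158 and 154 CPM in row_RNAi2 heads, 114 and 109.5 CPM in row_RNAi1 heads and 151, 156 and 168 CPM in controls (log2 fold change 0.48, SE 0.071). Ilp5 gave 44.8, 42.4 and 43.5 CPM in row_RNAi2 heads, 26.98 and 25.1 CPM in row_RNAi1 heads and 32.8, 35.6 and 41.4 CPM in controls (log2 fold change 0.74, SE 0.09). Ilp6, a fat body insulin-like peptide that rises on starvation, went the other way, with 39.5, 39.5 and 35.7 CPM in row_RNAi2 heads, 69.3 and 68.6 CPM in row_RNAi1 heads and 32.04, 35.8 and 34.98 CPM in controls (log2 fold change -0.85, SE 0.083). The edgeR adjusted p was 0.00027 for Ilp2, 4.2e-05 for Ilp5 and 4.26e-06 for Ilp6.

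Of 29 tested genes of insulin signalling and the starvation response, 4 were called higher and 8 lower in row_RNAi2, and the median of the list was -0.11. The 4 higher genes were tobi, daw (0.57), sug (0.39) and CG3961 (0.31). Some genes that fasting is known to raise in flies were among the lower ones, and the feeding state of the flies was not tested. The lipase gene bmm, which releases fat from droplets, was at 54.9, 62.5 and 56.1 CPM in row_RNAi2 heads and at 85.4 and 95.4 CPM in row_RNAi1 heads, with controls at 43.3, 40.8 and 40.9 CPM. Pepck, the gluconeogenic enzyme gene, was at 479, 677 and 539 CPM in row_RNAi2 heads and at 917 and 1006 CPM in row_RNAi1 heads, with controls at 415, 375 and 413 CPM. For both genes the row_RNAi1 libraries were the highest of the 8. Their log2 fold changes were -0.64 (SE 0.085, edgeR adjusted p = 9.42e-05) and -0.77 (SE 0.11, edgeR adjusted p = 0.000274). The lipase gene Lip3 had the largest fall of the list (-3.97), at few counts and with another order of the groups. It was at 0.164, 0 and 0 CPM in row_RNAi2 heads and at 0.661 and 0.747 CPM in row_RNAi1 heads. The controls were highest, at 0.915, 1.86 and 0.894 CPM. The trehalose synthesis gene Tps1 had a log2 fold change of -0.49, the insulin receptor gene InR -0.55 and the kinase gene Akt1 -0.45. In this list 2 genes were called higher and 4 lower without row_RNAi1 replicate 1, and 2 higher and 5 lower without row_RNAi1 replicate 2.

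Of 24 tested lipid and fat body genes, 5 were called higher and 4 lower in row_RNAi2, with a median of -0.08. Besides Lsp2 and Lsp1beta, the higher ones were the acyl-CoA synthetase gene Acsl (0.49), the lipase gene CG5966 (0.999) and the perilipin gene Lsd-1 (0.38). The lower ones were bmm, the fatty acid synthesis genes ACC (-0.39) and FASN1 (-0.32), and Mtp (-0.31), which loads lipid onto lipoproteins. Without row_RNAi1 replicate 2, bmm was the only gene of the list called lower, and 2 genes were called lower without row_RNAi1 replicate 1 or row_RNAi2 replicate 3. The 8 fat body markers, mostly yolk protein transcripts, summed to 131200, 150900 and 120000 CPM in row_RNAi2 heads, to 138600 and 111300 CPM in row_RNAi1 heads and to 86380 to 122500 CPM in controls, and the groups overlapped.

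**Figure D2:**
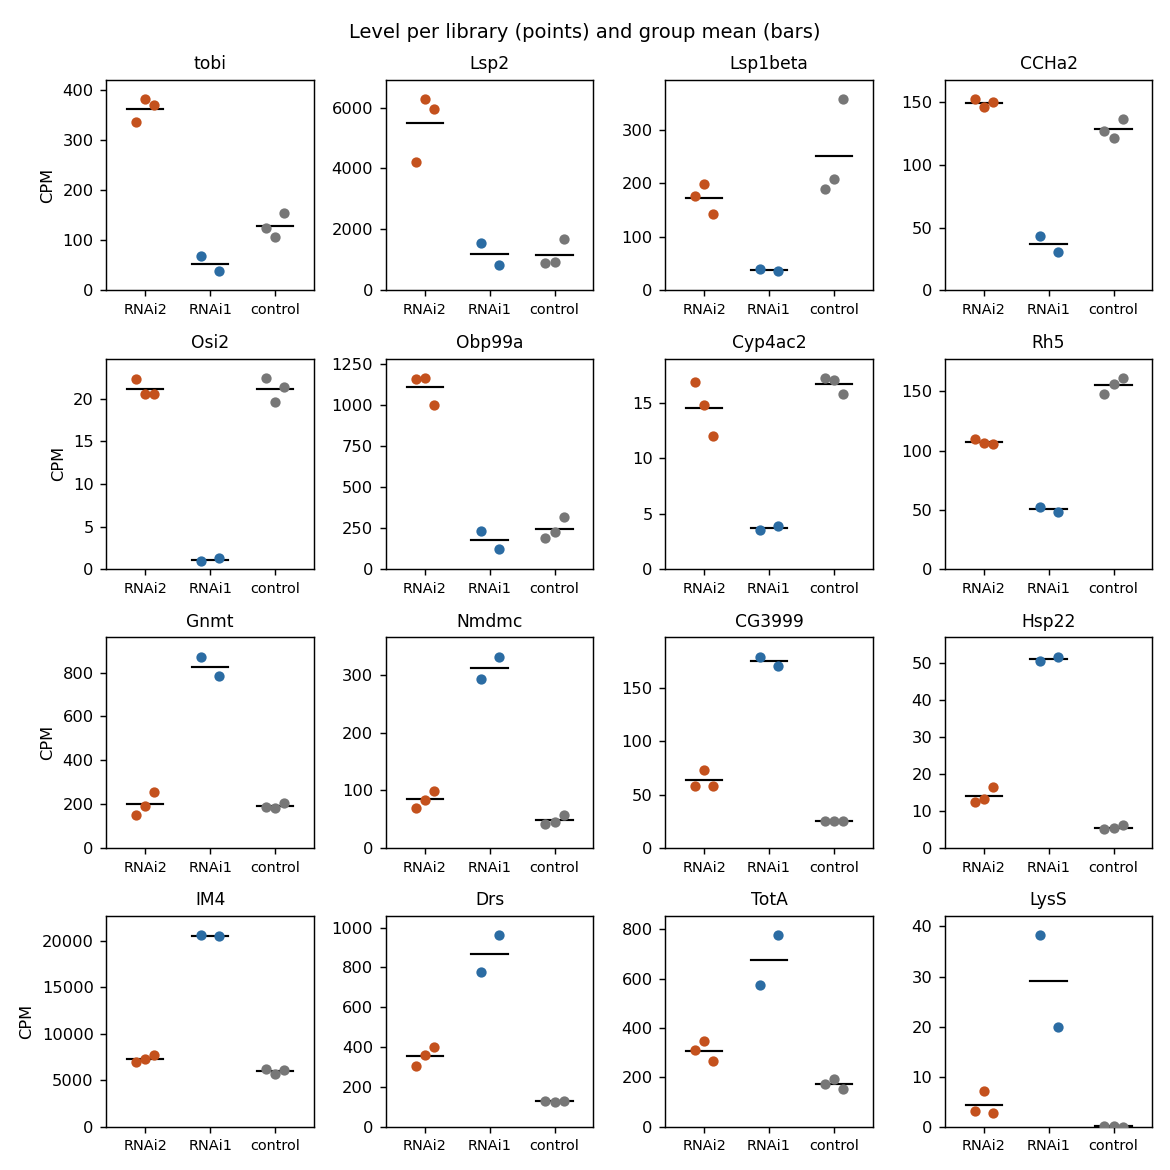
Each panel plots a gene's level in CPM in every library (points) and the group mean (bars) for row_RNAi2, row_RNAi1 and control heads. In the upper panels row_RNAi2 is the higher line, as for tobi at 337, 382 and 371 CPM against 67.7 and 38.97 CPM in row_RNAi1, and in the lower panels row_RNAi2 is the lower line, as for Gnmt at 151, 193 and 254 CPM against 873 and 782 CPM in row_RNAi1.

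Enzymes of one-carbon metabolism were lower in row_RNAi2. This pathway passes single carbons from serine and glycine onto folate and through methionine to S-adenosylmethionine, the methyl donor of the cell. Of its 14 tested genes, 10 were called lower and 0 higher in row_RNAi2, with a median log2 fold change of -0.72. Gnmt, which uses S-adenosylmethionine to methylate glycine, was at 151, 193 and 254 CPM in row_RNAi2 heads, at 873 and 782 CPM in row_RNAi1 heads and at 186, 183 and 207 CPM in controls (log2 fold change -2.05, SE 0.14, edgeR adjusted p = 1.57e-07). The row_RNAi2 and control libraries overlapped, and both row_RNAi1 libraries stood far above them. Nmdmc, the mitochondrial methylenetetrahydrofolate dehydrogenase gene, was at 69.4, 84.2 and 99.3 CPM in row_RNAi2 heads, at 294 and 333 CPM in row_RNAi1 heads and at 41.8, 44.8 and 57.1 CPM in controls (log2 fold change -1.88, SE 0.11, edgeR adjusted p = 2.18e-08). CG3999, which encodes the glycine decarboxylase of the glycine cleavage system, gave 58.4, 73.6 and 58.004 CPM in row_RNAi2 heads, 179.7 and 171 CPM in row_RNAi1 heads and 25.1, 25.7 and 25.3 CPM in controls (log2 fold change -1.46, SE 0.094, edgeR adjusted p = 6.13e-08). For Nmdmc and CG3999 the 3 groups were fully apart, with row_RNAi2 in the middle.

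The other called genes of the pathway were lower by less. Ahcy13, whose enzyme breaks down S-adenosylhomocysteine, was at 282, 298 and 269.7 CPM in row_RNAi2 heads and 532 and 551 CPM in row_RNAi1 heads, with 242, 274 and 291 CPM in controls. Its log2 fold change was -0.93 (SE 0.076, edgeR adjusted p = 6.76e-07). The log2 fold change was -0.76 for the sarcosine dehydrogenase gene Sardh, -0.73 for Eip55E (cystathionine gamma-lyase) and -0.72 for Cbs (cystathionine beta-synthase). It was -0.49 for CG3011 (Shmt, serine hydroxymethyltransferase) and -0.44 for the S-adenosylmethionine synthetase gene Sam-S. The genes not called were pug (-0.25), CG6415 (-0.17), Ahcy89E (0.026) and Ts (-1.001). Genes that make serine were lower too, with -0.82 for the phosphoserine phosphatase gene aay, -0.47 for CG6287 (phosphoglycerate dehydrogenase) and -0.46 for CG11899 (phosphoserine aminotransferase), whose call was lost without row_RNAi1 replicate 2. The aay libraries read 204, 214 and 222 CPM in row_RNAi2 heads, 383 and 372 CPM in row_RNAi1 heads and 153, 162 and 177 CPM in controls, without overlap between the lines. CG8665, a gene of this pathway outside the list that recycles formyl-folate, was higher in row_RNAi2 at 58.7, 53.5 and 41.2 CPM, against 13.04 and 8.68 CPM in row_RNAi1 heads and 74.5, 77.8 and 93.9 CPM in controls (log2 fold change 2.22, SE 0.17, edgeR adjusted p = 2.55e-07).

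The serine genes, Nmdmc and CG3011 stand on a list of the unfolded protein and ATF4 response, which cells use under amino acid or protein-folding stress. Of its 26 tested genes, 6 were called lower and 0 higher, with a median of -0.11, and the sixth was Thor (-0.31), a translation repressor, whose call was lost without row_RNAi1 replicate 1 or 2. The endoplasmic reticulum chaperone genes Hsc70-3 (-0.13) and Gp93 (-0.17) were not called.

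Nearly all immune peptide genes were lower in row_RNAi2, and none was called higher. Bomanins and Daishos are short peptides that the fat body secretes in large amounts under the Toll pathway, and classical antimicrobial peptides are made under Toll and Imd. All 16 tested genes of the Bomanin and Daisho list were called lower, with log2 fold changes of -1.69 to -0.48 and a median of -1.10. The list also holds the immune-induced genes IM18 (-0.62) and IM33, which belong to neither family. IM4 (Dso1) was at 6941, 7315 and 7698 CPM in row_RNAi2 heads, at 20573 and 20457 CPM in row_RNAi1 heads and at 6179, 5641 and 6118 CPM in controls (log2 fold change -1.49, SE 0.088, edgeR adjusted p = 2.18e-08). IM1 (BomS1) read 697, 667 and 903 CPM in row_RNAi2 heads, 1925 and 1739 CPM in row_RNAi1 heads and 602, 583 and 586 CPM in controls (log2 fold change -1.28, SE 0.11, edgeR adjusted p = 1.36e-06). CG43202 (BomT1) read 32.3, 35.8 and 41.5 CPM in row_RNAi2 heads, 118 and 120.4 CPM in row_RNAi1 heads and 13.3, 18.4 and 17.1 CPM in controls (log2 fold change -1.69, SE 0.092, edgeR adjusted p = 1.62e-08). For these 3 genes row_RNAi2 lay between the controls and row_RNAi1, and nearer to the controls in CPM.

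The order of the groups differed within the list. CG16836 was at 443, 487 and 497 CPM in row_RNAi2 heads, 974 and 1059 CPM in row_RNAi1 heads and 685, 664 and 667 CPM in controls, so that row_RNAi2 lay below the controls and row_RNAi1 above them. CG5791 gave 192, 152 and 228 CPM in row_RNAi2 heads, 368 and 326 CPM in row_RNAi1 heads and 294, 233 and 299.8 CPM in controls, with the same order. IM33 had the smallest difference of the 16, at 1484, 1538 and 1405 CPM in row_RNAi2 heads and 2135 and 1981 CPM in row_RNAi1 heads (log2 fold change -0.48), with controls at 1619.96, 1719 and 1899.9 CPM.

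Of 17 tested antimicrobial peptide genes, 15 were called lower and 0 higher in row_RNAi2, and their median difference was -1.08 on the log2 scale. Drs, an antifungal peptide gene, was at 304, 359 and 399.9 CPM in row_RNAi2 heads, at 778 and 961 CPM in row_RNAi1 heads and at 129.98, 126 and 131 CPM in controls (log2 fold change -1.29, SE 0.11, edgeR adjusted p = 1.02e-06). Def was at 121, 129 and 138 CPM in row_RNAi2 heads, 209.8 and 236 CPM in row_RNAi1 heads and 34.5, 31.9 and 23.9 CPM in controls. Mtk, another antifungal peptide gene, was at 927, 668 and 698 CPM in row_RNAi2 heads, 1567 and 1609 CPM in row_RNAi1 heads and 383, 132 and 463 CPM in controls. For all 3 genes the groups were apart, and row_RNAi2 lay between the controls and row_RNAi1. The log2 fold change was -0.78 for Def (SE 0.08, edgeR adjusted p = 6.97e-06) and -1.06 for Mtk (SE 0.11, edgeR adjusted p = 1.08e-05). The cecropin and attacin genes varied more within a line. CecA1 read 45.8, 12.2 and 13.6 CPM in row_RNAi2 heads and 126 and 23.1 CPM in row_RNAi1 heads, with 4.45, 0.413 and 10.7 CPM in controls, so that the lines overlapped (log2 fold change -1.78, SE 0.53, edgeR adjusted p = 0.0436). Replicate 1 was the higher library in row_RNAi1 for CecA1, CecA2, CecB, CecC, AttA, AttB and AttC. Of these peptide genes 8 were called without row_RNAi1 replicate 1 and 10 without row_RNAi2 replicate 2, and DESeq2 called 7. Drsl4 (-0.30) and CecA2 (-1.34) were not called.

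**Figure D3:**
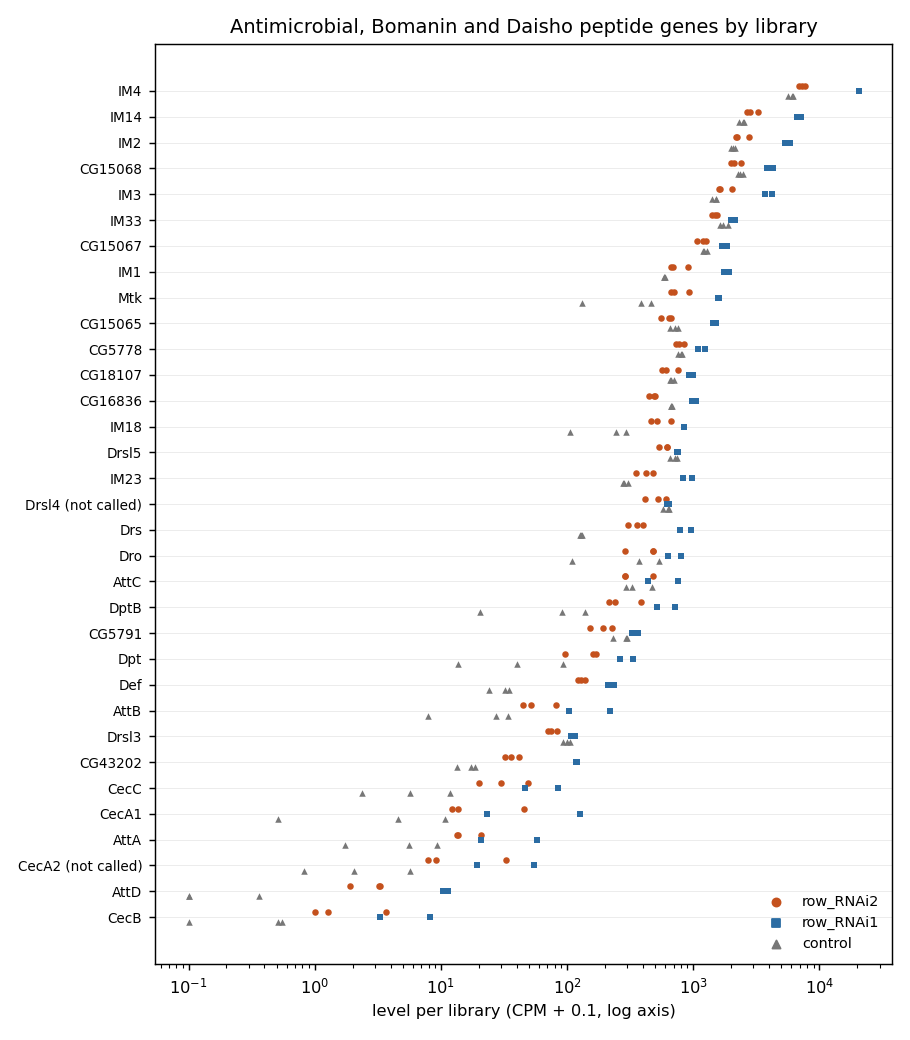
Rows are the genes of the antimicrobial peptide list and of the Bomanin and Daisho list. Points are the level in each row_RNAi2, row_RNAi1 and control library in CPM plus 0.1 on a log axis. The 2 genes marked as not called are Drsl4 and CecA2, the row_RNAi2 points for IM4, at 6941, 7315 and 7698 CPM, lie left of those of row_RNAi1, at 20573 and 20457 CPM, and the lines overlap for CecA1.

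Fewer receptor and signalling genes upstream of these peptides were called. Of 35 tested Toll and Imd pathway genes, 6 were called lower and 0 higher, with a median of -0.16. PGRP-SA, a receptor for bacterial peptidoglycan that feeds the Toll pathway, was at 69.04, 69.9 and 59.5 CPM in row_RNAi2 heads, at 117 and 119 CPM in row_RNAi1 heads and at 46.2, 58.02 and 51.4 CPM in controls (log2 fold change -0.84, SE 0.082, edgeR adjusted p = 4.95e-06). The other called members included the recognition genes PGRP-SD (-0.44) and GNBP3 (-0.33) and the adaptor gene tub (-0.35). The rest were PGRP-SC2 (-1.44), for an amidase that degrades peptidoglycan, and the Toll-restraining serpin gene nec (-0.29). PGRP-SA alone was called without row_RNAi1 replicate 1 or without row_RNAi2 replicate 2, and 4 members were called without row_RNAi1 replicate 2. Of 15 tested serpin genes, which encode protease inhibitors, 6 were called lower and 0 higher, with a median of -0.15. Spn42Dd (-0.56) was called in every fit run, and 2 serpin genes were called without row_RNAi1 replicate 1 or replicate 2.

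Turandot genes, which encode secreted stress peptides of the fat body, were lower too. Of 9 tested Turandot and JAK-STAT genes, 4 were called lower and 1 higher, with a median of -0.38. TotA was at 313, 346 and 268 CPM in row_RNAi2 heads, at 574 and 776 CPM in row_RNAi1 heads and at 174, 194 and 155 CPM in controls (log2 fold change -1.13, SE 0.12, edgeR adjusted p = 8.85e-06). TotC (-1.32) and TotM (-1.67) were lower as well, and for both row_RNAi1 replicate 2 held at least 2 times the CPM of row_RNAi1 replicate 1. TotX (-0.99) was at 17.2, 20.5 and 19.1 CPM in row_RNAi2 heads, 41.4 and 34.8 CPM in row_RNAi1 heads and 26.8, 20.03 and 19.9 CPM in controls, and there row_RNAi2 and the controls overlapped. The member called higher was Stat92E (0.25), the transcription factor of the JAK-STAT pathway, whose call was lost without row_RNAi1 replicate 1, without row_RNAi1 replicate 2, without row_RNAi2 replicate 2, in DESeq2, without a count filter, with all 8 libraries and after thinning to equal totals.

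LysS and LysP, close paralogs that encode lysozymes, which cut bacterial cell walls, were nearly silent in controls. LysS was at 3.12, 7.09 and 2.70 CPM in row_RNAi2 heads, 38.2 and 19.9 CPM in row_RNAi1 heads and 0.131, 0.103 and 0 CPM in controls (log2 fold change -2.70, SE 0.30, edgeR adjusted p = 1.75e-05). LysP read 5.74, 12.6 and 1.53 CPM in row_RNAi2 heads, 43.1 and 22.1 CPM in row_RNAi1 heads and 0, 0.619 and 0.224 CPM in controls, with a log2 fold change of -2.27 that DESeq2 did not call. Both lie inside another gene, mwh, and reads may be shared among paralogs. Of 10 tested lysozyme genes 3 were called lower and 0 higher, the last being CG16799 (-1.05). Of the 10, 6 had a positive log2 fold change, and the median was 0.066. Without row_RNAi2 replicate 3, 3 lysozyme genes were called higher, and 1 without row_RNAi2 replicate 1 or without a count filter. The infection-induced gene CR44404 (IBIN) was at 25.9, 19.997 and 26.4 CPM in row_RNAi2 heads, 118 and 62.6 CPM in row_RNAi1 heads and 3.27, 0.310 and 6.48 CPM in controls (log2 fold change -1.92, SE 0.20, edgeR adjusted p = 7.51e-06).

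Some blood cell genes were lower in row_RNAi2, mostly by small amounts. Of 29 tested hemocyte and melanization genes, 7 were called lower and 2 higher, with a median of -0.14. The share called higher was close to the 5.30% over all tested genes. The clotting factor gene Hml was at 74.5, 73.4 and 69.4 CPM in row_RNAi2 heads, 127 and 118 CPM in row_RNAi1 heads and 86.05, 87.5 and 96.01 CPM in controls (log2 fold change -0.76, SE 0.075, edgeR adjusted p = 5.12e-06). The 8 hemocyte markers together summed to 403, 409.6 and 416 CPM in row_RNAi2 heads, to 516 and 509 CPM in row_RNAi1 heads and to 457 to 490.4 CPM in controls, and 4 of 7 tested markers were called lower. The part of blood cell number in the immune differences was not tested. The genes called higher were the prophenoloxidases PPO1 (0.48) and PPO2 (0.44), both of which lost the call without row_RNAi1 replicate 2. The only genes of the list called lower without row_RNAi1 replicate 1 were Hml and NimB1 (-0.74), while 3 were called lower without row_RNAi1 replicate 2 and 4 without row_RNAi2 replicate 2.

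Hsp22, a small heat-shock protein gene of mitochondria, was at 12.5, 13.1 and 16.4 CPM in row_RNAi2 heads, 50.6 and 51.7 CPM in row_RNAi1 heads and 5.10, 5.27 and 6.15 CPM in controls (log2 fold change -1.85, SE 0.11, edgeR adjusted p = 2.18e-08). Hsp67Bb had the same count as Hsp22 in every library, so the pair is 1 measurement that cannot be assigned to either gene. Of 19 tested heat-shock genes, 3 including this pair were called lower and 2 higher, and without row_RNAi1 replicate 1 or 2 or row_RNAi2 replicate 2 only the pair was called. The 2 higher ones were Hsp23 (0.56) and Hsc70-1 (0.31), and neither was called without row_RNAi2 replicate 3 or in DESeq2. The lactate dehydrogenase gene ImpL3 (Ldh) gave 28.2, 37.3 and 27.6 CPM in row_RNAi2 heads, 65.4 and 64.95 CPM in row_RNAi1 heads and 21.7, 22.7 and 23.2 CPM in controls (log2 fold change -1.06, SE 0.11, edgeR adjusted p = 8e-06). Of 16 tested glycolysis genes, 3 were called lower and 1 higher, and without row_RNAi1 replicate 1 or 2 or row_RNAi2 replicate 2 ImpL3 alone was called, as it was among the lower ones without row_RNAi2 replicate 3. The metal-binding metallothionein genes MtnD (-1.05) and MtnE (-0.54) were the 2 genes called, both lower, of 14 for metallothioneins and iron proteins, and MtnE lost the call without row_RNAi1 replicate 1 or 2 or row_RNAi2 replicate 2.

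Cytochrome P450 genes were called higher in row_RNAi2 more often than lower. Of 68 tested cytochrome P450 genes, 14 were called higher and 4 lower, with a median of 0.18. Their enzymes oxidise hormones and foreign compounds. The share called lower was close to the 5.73% over all tested genes. Cyp4ac2 was at 16.9, 14.8 and 11.98 CPM in row_RNAi2 heads, 3.48 and 3.91 CPM in row_RNAi1 heads and 17.3, 17.04 and 15.8 CPM in controls (log2 fold change 1.95, SE 0.18, edgeR adjusted p = 2.46e-06). Cyp305a1 gave 57.6, 65.99 and 55.8 CPM in row_RNAi2 heads, 25.7 and 26.9 CPM in row_RNAi1 heads and 67.9, 72.2 and 65.2 CPM in controls (log2 fold change 1.19, SE 0.10, edgeR adjusted p = 6.76e-07). In both genes row_RNAi1 was the low group. Cyp6w1, at 64.3, 63.2 and 72.1 CPM in row_RNAi2 heads, 36.6 and 32.2 CPM in row_RNAi1 heads and 149, 155 and 172 CPM in controls, was below the controls in both lines and lower in row_RNAi1. Cyp309a1 was above the controls in both lines, at 80.4, 75.9 and 75.1 CPM in row_RNAi2 heads, 43.9 and 44.5 CPM in row_RNAi1 heads and 30.7, 21.5 and 24.1 CPM in controls. The largest fall among called P450 genes was Cyp4e3 (-0.94), which lost its call without row_RNAi1 replicate 2. Of 32 tested glutathione transferase genes, 2 were called higher and 5 lower, GstZ1 (-1.07) and GstE1 (-0.82) among the lower ones. The share called higher was close to the 5.30% over all tested genes. Without row_RNAi1 replicate 1 or 2, 1 transferase gene was called higher and 3 lower, and without row_RNAi2 replicate 1, 5 were called higher. Of 10 tested UDP-glycosyltransferase genes edgeR, DESeq2 and limma voom called 0, with 2 at an unadjusted p under 0.05.

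The 3 juvenile hormone epoxide hydrolase genes, neighbours on the chromosome whose enzymes inactivate juvenile hormone, were all higher in row_RNAi2. Jheh2 read 152, 148 and 141 CPM in row_RNAi2 heads, 98.4 and 93.1 CPM in row_RNAi1 heads and 221, 217 and 221 CPM in controls (log2 fold change 0.62, SE 0.074, edgeR adjusted p = 3.4e-05), and Jheh1 (0.72) and Jheh3 (1.03) went the same way. The Jheh2 controls lay above both lines, and row_RNAi1 was the lowest group for all 3 genes. Jhe (-1.08), the juvenile hormone esterase gene, and the hormone target Kr-h1 (-0.39) were lower, and both lost the call without row_RNAi1 replicate 1 or row_RNAi2 replicate 2. Kr-h1 also lost it without row_RNAi1 replicate 2. These were the 5 called of 21 tested ecdysone and juvenile hormone genes.

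Eye genes gave a set of higher transcripts in row_RNAi2. Of 41 tested phototransduction genes, 8 were called higher and 1 lower, with a median of 0.19. The opsin gene Rh5, for the blue-sensitive pigment of inner photoreceptors, was at 110.04, 106 and 106 CPM in row_RNAi2 heads, 52.6 and 48.1 CPM in row_RNAi1 heads and 148, 156 and 161 CPM in controls (log2 fold change 1.09, SE 0.079, edgeR adjusted p = 1.99e-07). The green-sensitive opsin gene Rh6, used by the complementary set of the same cells, was lower, at 189, 211 and 226 CPM in row_RNAi2 heads, 260.1 and 273 CPM in row_RNAi1 heads and 211, 214 and 202 CPM in controls (log2 fold change -0.35, SE 0.082, edgeR adjusted p = 0.01). The call of Rh6 was lost without row_RNAi1 replicate 1 or 2. The lens protein gene retinin was at 6660.1, 6613 and 6769.9 CPM in row_RNAi2 heads, 3749 and 4009 CPM in row_RNAi1 heads and 6292, 6094 and 5943 CPM in controls (log2 fold change 0.78, SE 0.086, edgeR adjusted p = 1.31e-05). Pdh, a photoreceptor dehydrogenase gene for retinoids outside the list, had a log2 fold change of 0.61 (SE 0.09, edgeR adjusted p = 0.000244). The fit called 3 phototransduction genes higher without row_RNAi1 replicate 1, 2 without row_RNAi1 replicate 2 and 5 without row_RNAi2 replicate 2. The 10 photoreceptor markers summed to 25410, 27530 and 28140 CPM in row_RNAi2 heads, to 24730 and 24160 CPM in row_RNAi1 heads and to 27110 to 27450 CPM in controls, without overlap between the lines. The lines were also apart for 39.1% of all tested genes. The part of photoreceptor number in the eye differences was not tested.

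Of 24 tested eye pigment genes, 7 were called higher and 1 lower in row_RNAi2. Rab32, needed for pigment granules, was at 197, 187 and 188 CPM in row_RNAi2 heads, 120.1 and 116 CPM in row_RNAi1 heads and 212, 213 and 190.2 CPM in controls (log2 fold change 0.69, SE 0.072, edgeR adjusted p = 7.66e-06). The pteridine genes pr (0.65) and se (0.67) and the transporter gene bw (0.69) were also higher. The pigment genes w and v and the body-colour gene y are in common use as visible markers of fly transgenes, and the labels do not say which marker either insertion carries. The transporter gene w was at 11.8, 16.4 and 15.9 CPM in row_RNAi2 heads, 5.53 and 5.75 CPM in row_RNAi1 heads and 7.98, 5.78 and 6.26 CPM in controls (log2 fold change 1.41, SE 0.16, edgeR adjusted p = 2.11e-05). In contrast v was lower, with 123, 115 and 98.6 CPM in row_RNAi2 heads, 169 and 169 CPM in row_RNAi1 heads and 129, 132 and 129 CPM in controls (log2 fold change -0.60, SE 0.086, edgeR adjusted p = 0.000215). The same held for y, with 1.64, 0.909 and 0.630 CPM in row_RNAi2 heads, 4.87 and 4.71 CPM in row_RNAi1 heads and 0.915, 1.45 and 0.782 CPM in controls (log2 fold change -2.29, SE 0.34, edgeR adjusted p = 0.00025). For w row_RNAi2 stood well above the controls, with row_RNAi1 just below them. For v the controls lay between the lines, and for y row_RNAi1 stood above the overlapping row_RNAi2 and control libraries. Whether transgene copies of these genes were counted was not tested.

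Some neuronal transcripts were higher in row_RNAi2 by small amounts. Of 48 tested neuronal and synaptic genes, 9 were called higher and 0 lower, with a median of 0.20. The synaptic vesicle release gene cpx, at 372, 320.1 and 322 CPM in row_RNAi2 heads, 248 and 245 CPM in row_RNAi1 heads and 339, 342 and 278 CPM in controls, had a log2 fold change of 0.45 (SE 0.084, edgeR adjusted p = 0.00174). Without row_RNAi1 replicate 1, cpx alone of the list was called, without row_RNAi1 replicate 2, 4 genes were, and without row_RNAi2 replicate 1, 15. The 7 neuron markers summed to 566, 638 and 679 CPM in row_RNAi2 heads, to 565.5 and 589.6 CPM in row_RNAi1 heads and to 630.1 to 675 CPM in controls, and the lines overlapped. Of 28 tested neuropeptide genes, 8 were called higher and 0 lower, with a median of 0.26. Besides CCHa2, Ilp2, Ilp3 (0.32) and Ilp5 these were Nplp3 (0.84), the clock neuron peptide Pdf (0.46), sNPF (0.40) and Dsk (0.30). Without row_RNAi1 replicate 1 or row_RNAi2 replicate 2, 5 neuropeptide genes were called, and without row_RNAi1 replicate 2, 4. Of 18 tested clock genes 4 were called higher and 0 lower, and fewer were called higher when either row_RNAi1 library was left out. The 4 were Pdf, slo, to and CG11891, whose counts in the 5 row libraries were those of CG11889. The core clock genes per (-0.046), tim (-0.0056), Clk (-0.12), cyc (-0.13) and Pdp1 (0.038) were not called. Without row_RNAi2 replicate 3, 2 clock genes were called lower.

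Of 21 tested glia and blood-brain barrier genes, 4 were called higher and 3 lower in row_RNAi2. The trehalose transporter gene Tret1-1, which carries sugar into the brain, was at 249.8, 252 and 232 CPM in row_RNAi2 heads, 444 and 424 CPM in row_RNAi1 heads and 235, 244 and 246 CPM in controls (log2 fold change -0.83, SE 0.075, edgeR adjusted p = 2.1e-06). The row_RNAi2 and control libraries overlapped. The organic cation transporter relative CG6126 was higher, at 92.2, 82.8 and 83.6 CPM in row_RNAi2 heads, 62.2 and 61.7 CPM in row_RNAi1 heads and 112, 102 and 99.1 CPM in controls (log2 fold change 0.47, SE 0.079, edgeR adjusted p = 0.000807). In this list 1 gene was called higher and 1 lower without row_RNAi1 replicate 1, and without row_RNAi1 replicate 2, 2 higher and 1 lower, and without row_RNAi2 replicate 2, 1 lower. The 6 glia markers summed to 886, 1026 and 1004 CPM in row_RNAi2 heads and to 829.6 and 834 CPM in row_RNAi1 heads. In controls the sums were 1085 to 1087 CPM. The lines did not overlap, as for 39.1% of all tested genes. The part of these markers in the glia and neuronal differences was not tested.

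Arc1, whose protein forms virus-like capsids that carry RNA between cells, was lower in row_RNAi2. It was at 204, 257 and 229 CPM in row_RNAi2 heads, 523 and 419.9 CPM in row_RNAi1 heads and 141, 113 and 151 CPM in controls (log2 fold change -1.03, SE 0.10, edgeR adjusted p = 5.42e-06). Its paralog Arc2 had -1.02 (SE 0.15, edgeR adjusted p = 0.000248). They were 2 of 3 genes called lower among 17 tested activity-regulated genes. The 1 called higher, CG14186 (0.62), lost the call without row_RNAi1 replicate 2.

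Odorant-binding protein genes encode small secreted proteins, some of them made outside the antenna. Of 28 tested, 5 were called higher and 2 lower, with a median of -0.03, and the share called lower was close to the 5.73% over all tested genes. Without a count filter 7 were called higher and 11 lower of 44. These counts became 3 higher and 5 lower without row_RNAi1 replicate 1, and 3 higher and 1 lower without row_RNAi2 replicate 2. There was 1 called lower without row_RNAi1 replicate 2, and 4 without row_RNAi2 replicate 1. Obp99a was at 1156, 1164 and 1001 CPM in row_RNAi2 heads, 234 and 121 CPM in row_RNAi1 heads and 187, 224 and 315 CPM in controls (log2 fold change 2.64, SE 0.20, edgeR adjusted p = 2.55e-07). Only row_RNAi2 stood apart here, while row_RNAi1 and the controls overlapped. Its relative Obp99b was lower, at 48.1, 40.8 and 43.95 CPM in row_RNAi2 heads, 84.7 and 102 CPM in row_RNAi1 heads and 327, 225 and 429 CPM in controls (log2 fold change -1.09, SE 0.10, edgeR adjusted p = 1.49e-06). Here both lines lay far below the controls. Obp44a read 1156, 1221 and 1277 CPM in row_RNAi2 heads, 649.9 and 685 CPM in row_RNAi1 heads and 1769, 1574 and 1686 CPM in controls (log2 fold change 0.87, SE 0.082, edgeR adjusted p = 3.27e-06). The 9 antennal markers summed to 15.4, 17.2 and 20.4 CPM in row_RNAi2 heads, to 21.9 and 51.2 CPM in row_RNAi1 heads and to 33.0 to 74.9 CPM in controls, and the row_RNAi2 sums were all below the row_RNAi1 sums. All row_RNAi2 libraries were also lower for 19.2% of all tested genes. The largest part of each sum was Obp28a, at 11.15, 11.36 and 13.96 CPM in row_RNAi2 heads and 16.22 and 22.88 CPM in row_RNAi1 heads. Obp28a and lush were lower in every row_RNAi2 library than in both row_RNAi1 libraries. Obp83a and Obp83b were at 0.2403 and 0.1202 CPM in row_RNAi1 replicate 1, below every row_RNAi2 library. In row_RNAi1 replicate 2 they were at 13.28 and 7.3 CPM, so they did not follow the order of the sums. The part of the antennal markers in the odorant-binding differences was not tested. Of 14 tested odorant, gustatory and ionotropic receptor genes edgeR, DESeq2 and limma voom called 0, with 1 at an unadjusted p under 0.05. In edgeR 1 receptor gene was called higher without row_RNAi2 replicate 1, and 1 without a count filter.

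Cuticle genes included some of the largest single differences. Osi2, of the insect-specific Osiris family of cuticle-forming cells, was at 22.3, 20.5 and 20.6 CPM in row_RNAi2 heads, 0.901 and 1.26 CPM in row_RNAi1 heads and 22.5, 19.6 and 21.5 CPM in controls (log2 fold change 4.26, SE 0.19, edgeR adjusted p = 4.24e-09). The row_RNAi2 and control libraries overlapped, and the transcript was nearly lost in row_RNAi1. The cuticle protein gene Cpr64Ac was at 8.86, 9.45 and 9.73 CPM in row_RNAi2 heads, 31.6 and 40.2 CPM in row_RNAi1 heads and 1.18, 0.413 and 0.559 CPM in controls (log2 fold change -1.93, SE 0.13, edgeR adjusted p = 7.32e-08). Both lines stood above the controls there, and row_RNAi1 more so. Edg91 gave 6.23, 4.91 and 7.30 CPM in row_RNAi2 heads, 18.5 and 14.8 CPM in row_RNAi1 heads and 0.654, 1.24 and 1.12 CPM in controls, in the same order (log2 fold change -1.44). For Cpr11B it was row_RNAi2 that stood apart, at 33.5, 31.6 and 26.8 CPM, against 57.98 and 63.9 CPM in row_RNAi1 heads and 59.5, 54.6 and 61.4 CPM in controls (log2 fold change -1.005). Of 41 tested cuticle, Tweedle and Osiris genes, 5 were called higher and 8 lower. Without row_RNAi1 replicate 1 or 2, 2 were called higher, Osi2 and Cpr60D (1.02).

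Single genes outside these groups gave the extremes of the comparison. CG13704 (hoka), which encodes a protein of the gut's smooth septate junctions, was at 13.4, 15.5 and 10.1 CPM in row_RNAi2 heads, 0.240 and 0.172 CPM in row_RNAi1 heads and 0.131, 0.103 and 0 CPM in controls. Only row_RNAi2 expressed it above trace levels, and its log2 fold change of 5.91 (SE 0.35, edgeR adjusted p = 2.18e-08) was the largest rise among the 9502 genes. CG12522 was its counterpart, with 92 and 105 counts in the row_RNAi1 libraries, 0 in every row_RNAi2 library and 0 in the controls. Set against the limit of 3 counts that a total of 0 over the row_RNAi2 group allows, it was at least 54.4-fold lower in row_RNAi2, a limit that covers counting error only. CG12522 was outside the rule for named genes and was chosen after its values were seen. CG4757 was at 0.164, 1.09 and 1.44 CPM in row_RNAi2 heads, 10.996 and 14.03 CPM in row_RNAi1 heads and 35.6, 36.2 and 43.8 CPM in controls, below the controls in both lines (log2 fold change -3.60, SE 0.30, edgeR adjusted p = 7.35e-07).

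For a few named genes all controls lay between the lines, so that the lines stood on opposite sides of them. CG7509 was at 21.6, 21.6 and 20.99 CPM in row_RNAi2 heads, 2.82 and 2.87 CPM in row_RNAi1 heads and 12.9, 12.8 and 10.8 CPM in controls (log2 fold change 2.90, SE 0.14, edgeR adjusted p = 1.08e-08). CG14642 read 13.3, 11.4 and 12.5 CPM in row_RNAi2 heads, 2.28 and 2.41 CPM in row_RNAi1 heads and 4.58, 3.72 and 3.69 CPM in controls (log2 fold change 2.38). The same order held for CG43085 (2.43) and, as described, tobi. In the other direction, cu (curled, the fly nocturnin) was at 19.5, 24.3 and 23.4 CPM in row_RNAi2 heads, 60.7 and 70.8 CPM in row_RNAi1 heads and 24.8, 24.9 and 30.5 CPM in controls (log2 fold change -1.54, SE 0.10, edgeR adjusted p = 1.01e-07). CG43448 was at 10.7, 10.5 and 9.82 CPM in row_RNAi2 heads, 42.1 and 40.2 CPM in row_RNAi1 heads and 14.9, 11.6 and 15.8 CPM in controls (log2 fold change -1.998, SE 0.10, edgeR adjusted p = 1.08e-08). CG16743 (-1.40) and CG2100 (-1.44) showed that order too. The controls lay nearer to row_RNAi2 than to row_RNAi1 for cu, CG43448, CG16743 and CG2100.

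The most abundant called transcripts differed by unequal amounts. IM4, retinin and Lsp2, described above, were among them, with log2 fold changes of -1.49, 0.78 and 2.19. Adh, the alcohol dehydrogenase gene, gave 15289, 17076 and 16071 CPM in row_RNAi2 heads, 20211 and 20496 CPM in row_RNAi1 heads and 11256, 11116 and 11579.9 CPM in controls (log2 fold change -0.33, SE 0.091, edgeR adjusted p = 0.0253). Adhr overlaps Adh and carried nearly the same counts, so the pair is 1 measurement. The translation elongation factor gene Ef1alpha48D had -0.32 and the fatty acid binding protein gene fabp 0.45. Adh, Ef1alpha48D and fabp lost the call in at least 1 fit that left out a library.

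Several lists showed few or no called members. The 8 tested partners of ROW, HP1c and woc among them, gave 0 calls in edgeR, DESeq2 and limma voom, with 1 at an unadjusted p under 0.05. That gene was woc, called lower by edgeR with all 8 libraries, at 24.6, 24.4 and 23.8 CPM in row_RNAi2 heads, 28.4 and 30.3 CPM in row_RNAi1 heads and 23.8, 24.7 and 22.2 CPM in controls (log2 fold change -0.28, SE 0.094, edgeR adjusted p = 0.0732). The architectural factor gene BEAF-32, named in the study's title, was at 16.9, 20.3 and 17.2 CPM in row_RNAi2 heads, 16.7 and 15.9 CPM in row_RNAi1 heads and 17.1, 19.4 and 16.5 CPM in controls (log2 fold change 0.16, SE 0.12, edgeR adjusted p = 0.468). Among 17 genes of insulator and architectural factors and 31 of proteasome subunits, none was called by edgeR, DESeq2 or limma voom, and 0 had an unadjusted p under 0.05. Of 86 cytosolic ribosomal protein genes edgeR called 0, with 4 at an unadjusted p under 0.05, while DESeq2 and limma voom called 2 each and edgeR without row_RNAi2 replicate 1 called 6. A single gene was called of 73 for mitochondrial ribosomal proteins, 1 of 35 for oxidative phosphorylation, 1 of 29 for muscle and 1 of 16 for small RNA pathways. Each of these 4 calls was lost without row_RNAi1 replicate 1 and without row_RNAi1 replicate 2. For muscle DESeq2 called 3 genes and limma voom 4, and without a count filter 2 were called higher and 4 lower. The small RNA gene was AGO2 (0.38), the slicer of RNA interference. Without row_RNAi2 replicate 1, 3 muscle genes were called higher and 2 lower and 3 mitochondrial ribosomal protein genes lower, and without row_RNAi2 replicate 3, 4 muscle genes lower. The 9 muscle markers summed to 2970, 3185 and 3245 CPM in row_RNAi2 heads and to 3407 and 3556 CPM in row_RNAi1 heads. In controls the sums were 2761 to 2964 CPM. The lines did not overlap, as for 39.1% of all tested genes. The plot of gene lists sets the lists of this paragraph beside the immune and metabolic lists.

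Yolk protein and dosage compensation transcripts, which differ between females and males, were compared because sex is not stated. The yolk protein gene Yp1 was at 42073, 50339.5 and 40529 CPM in row_RNAi2 heads, 44093 and 35559.9 CPM in row_RNAi1 heads and 31101, 41643 and 44348 CPM in controls, and the groups overlapped. The male dosage compensation RNA roX1 was at 422, 469 and 555 CPM in row_RNAi2 heads, 304 and 351 CPM in row_RNAi1 heads and 681, 533 and 417 CPM in controls (log2 fold change 0.56, SE 0.11, edgeR adjusted p = 0.00224), and its call was lost without row_RNAi1 replicate 1. Of 16 tested yolk and sex-biased genes, 2 were called higher and 1 lower, and the one called lower was Obp99b. Without row_RNAi1 replicate 1 or 2 or row_RNAi2 replicate 2, 1 was called higher, and without row_RNAi2 replicate 3, 4. The share of males and females in each library was not tested.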

How the data were processed

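The authors deposited a table of raw read counts per gene symbol for 8 fly head libraries made by RNAtag-Seq, a 3′ RNA-seq method, per the labels' protocols. The submitters' processing notes name STAR and the genome build dm3. The counting tool, annotation and use of strand are not given in the sources used here. Reads come from transcript ends, so counts do not scale with gene length, and no level was compared between genes. All 8 count columns matched a sample and 0 were unused. Library totals ran between 6230666 and 18046699 counts. The row_RNAi1 libraries were the deepest, so their counting error is the smallest.

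From these counts, R 4.3.3 with edgeR 4.0.16 (TMM factors, glmQLFit and glmQLFTest) compared row_RNAi2 with row_RNAi1 in a fit of the 5 row libraries, for genes with at least 10 counts in 2 or more of them. P-values were adjusted with Benjamini-Hochberg over 9502 genes, with calls at 0.05. CPM of the controls use TMM factors on the same scale, and log2 differences from the controls add 0.5 CPM. The fit was tested on simulated data with known fold changes.

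Genes were named by a rule. Among called genes with a mean of at least 5 CPM whose lines did not overlap, it took the 12 largest fold changes, the 4 most abundant and the 4 largest with all controls between the lines, in each direction. To these it added row and the 3 members with the smallest p of each of 40 gene lists. Other list members named in the text were chosen after their values were seen, and 1 called gene of the one-carbon list is not reported here by name. The comparison, its members, the gene lists and 11 marker lists were chosen with earlier results of these data known. Alternatives were RLE size factors, DESeq2 1.42.0, limma voom (limma 3.58.1), filterByExpr, no filter, all 8 libraries in a 3-group model, the replicate number as a block, thinning to equal totals, and leaving out each library. Overlapping and neighbouring genes were taken from a RefSeq gene table of another build, without its coordinates.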

Additional observations from a re-analysis of the deposited data

How the results depend on the processing

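The number of called genes was 1030 with RLE size factors, 833 with DESeq2, 1123 with limma voom, 1047 with filterByExpr, 1321 without a filter, 1085 with all 8 libraries and 880 after thinning to equal totals. DESeq2 shared 815 of its calls with the 1048 and the 8-library model 981. Leaving out 1 library gave between 560 and 1232 called genes. The range was 226 to 562 for genes higher in row_RNAi2 and 321 to 670 for genes lower. The counts under 600 came without row_RNAi1 replicate 1 or 2, where 537 and 548 of the calls were shared. None of the 1048 called genes changed sign in any of the 13 alternatives. Called genes and most named genes were chosen by their values in these same libraries, and for 1038 called genes the lines lay apart. Leaving out a library could therefore hardly turn their sign, and the kept signs are a description, not support for the calls. Of 3008 pairs of a named gene and an alternative, 2657 kept direction and side of the threshold, 348 lost the call, 1 gained it and 2 turned sign. Those 2 were HP1c, not called in any fit, at -0.057 after thinning and -0.022 without row_RNAi2 replicate 2, with a range of -0.022 to 0.15 over the fits that left out 1 library. The row transcript was not called in any alternative, and its log2 fold change lay between 0.32 and 0.81 when 1 library was left out. With the replicate number as a block, 1237 genes were called, 953 of them shared. Its list counts included 3 lysozyme genes higher, 2 clock genes lower, 6 muscle genes lower and 5 odorant-binding protein genes lower in row_RNAi2. Of the lines only row_RNAi2 has a replicate 3, so in the block fit that library adds nothing to the difference between the lines. The same-numbered libraries of the lines deviated together at correlations of only 0.073 and 0.017, so the numbers were not treated as pairs. Depth limits the genes under 5 CPM, whose median SE was 0.310 or more.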

Other observations

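Of 181 pairs of called genes next to each other along the chromosome, 127 moved in the same direction, 49 of them higher and 78 lower in row_RNAi2, and 54 in opposite directions. Of 500 genes called higher in row_RNAi2 that could be placed, 89 (17.8%) had an adjacent tested gene that was also called higher, against 10.3% of all 9412 placed genes. Of 536 genes called lower, 134 (25.0%) had an adjacent tested gene called lower, against 10.9% of all placed genes. There were 19 runs of 3 or more such neighbours, 8 of genes higher in row_RNAi2 with 25 genes and 11 of genes lower with 44 genes. The longest run held 12 genes, all lower in row_RNAi2. It contained 10 Bomanin genes (CG43202, IM23, IM1, CG18107, CG15067, IM2, IM3, CG16836, CG15065 and CG15068), followed by the chitinase-like growth factor gene Idgf5 and the glutathione transferase gene GstE1. Idgf5 was at 108, 89.1 and 85.6 CPM in row_RNAi2 heads, 124 and 124 CPM in row_RNAi1 heads and 89.8, 92.4 and 87.7 CPM in controls, and GstE1 was at 21.8, 29.3 and 31.7 CPM in row_RNAi2 heads, 55.3 and 43.97 CPM in row_RNAi1 heads and 30.5, 34.7 and 34.2 CPM in controls. Neighbouring genes can share reads where they overlap or are copies of each other, and the part of such reads in these counts was not tested.

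A run of 3 genes higher in row_RNAi2 held CG13707, CG13704 and the ammonium transporter relative Rh50. CG13707 was at 10.7, 15.4 and 14.3 CPM in row_RNAi2 heads, 7.27 and 8.45 CPM in row_RNAi1 heads and 7.72, 7.12 and 6.59 CPM in controls, and Rh50 was at 63.5, 61.5 and 57.9 CPM in row_RNAi2 heads, 44.5 and 45.1 CPM in row_RNAi1 heads and 60.8, 58.7 and 56.9 CPM in controls. Besides CG12522, the called genes with at most 3 counts in the row_RNAi2 group were CG12911, CG43348, CG13461 and Lip3. CG43348 had 0, 1 and 1 counts in row_RNAi2 heads, 26 and 15 in row_RNAi1 heads and 0 in each control, while Lip3 had 1, 0 and 0 counts in row_RNAi2 heads, 11 and 13 in row_RNAi1 heads and 7, 18 and 8 in controls.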
